A study of Mus musculus with 2 samples.

Results

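Apoe-high noncycling microglia were the 230 cells with the largest share of their transcripts in Apoe among 1535 noncycling microglia, out of 5696 cell barcodes. The cells were mouse microglia (C57BL/6), the resident macrophages of the brain, taken at day 3 of repopulation after depletion, sorted as CD11b high CD45 low cells and profiled with the 10x 3' v3 single-cell kit. The first group was Hk2 fl/fl, with floxed alleles of hexokinase 2, the enzyme that starts glycolysis. The second was Hk2 cKO, a conditional knockout in which the floxed allele was crossed to Cx3cr1CreER, a tamoxifen-activated recombinase driven from the locus of the fractalkine receptor of microglia. Both groups carried the floxed allele, and each was a single library. The protocol gives 100 µg of tamoxifen on 2 days in a row and does not say whether the Hk2 fl/fl mice received it. The depletion method, the age at sorting, the number of mice per library and the floxed exons are not given in the sources used here.

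Members were taken by a rule. A barcode entered with at least 1000 genes, at most 5% mitochondrial transcripts, and unique molecular identifiers (UMIs, each counting 1 captured RNA molecule) of at least 3 of the 4 microglial genes P2ry12, Tmem119, Siglech and Fcrls. It was noncycling when it held UMIs of at most 1 of 10 cell cycle genes. Of the noncycling cells of both libraries together, the 15% with the highest share of UMIs in Apoe became members. All differences between members and the 1305 other noncycling cells therefore describe cells chosen on their own RNA and carry no test. With 1 library per genotype, differences between genotypes carry none either. Intervals are exact 95% intervals unless named otherwise, and cover counting error only.

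Apolipoprotein E carries cholesterol and phospholipid in lipoprotein particles, and in the healthy brain is made mainly by astrocytes. Microglia in development, in ageing and in disease can make much of it as well. Liver X receptors (LXR) sense oxysterols and switch on Apoe together with the efflux pumps Abca1 and Abcg1. The factor encoded by Srebf2 is released when membrane cholesterol is low, and switches on the enzymes of cholesterol synthesis.

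Promoters are shown for 4 genes of these sterol pathways whose levels differed between members and other cells, from RefSeq's table for GRCm38.p6. Each run is 5′ to 3′ and lies within the 250 bases before the gene's start, with bases of annotated exons left out. Capitals mark the match to a searched motif. In Abca1 it is an LXR-type repeat, the half-sites GGTNA and GGTCA at their usual spacing, on the opposite strand. In Cyp51 and Srebf2 it is ATCACNNCA, and in Hmgcs1 TCACNCCAC, both loose spellings of a sterol regulatory element.
Abca1 (chr4:53159896-53160145, minus strand): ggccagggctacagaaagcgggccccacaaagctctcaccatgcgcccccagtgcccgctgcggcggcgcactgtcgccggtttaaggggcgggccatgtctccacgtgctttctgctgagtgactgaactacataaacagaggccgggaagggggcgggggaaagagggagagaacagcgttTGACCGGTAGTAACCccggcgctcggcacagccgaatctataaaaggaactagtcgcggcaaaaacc
Cyp51 (chr5:4104747-4104947, minus strand): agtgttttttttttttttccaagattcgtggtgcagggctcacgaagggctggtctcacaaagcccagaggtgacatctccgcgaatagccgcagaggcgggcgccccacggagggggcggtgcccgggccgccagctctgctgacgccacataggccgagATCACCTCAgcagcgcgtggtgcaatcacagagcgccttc
Srebf2 (chr15:82147019-82147180, plus strand): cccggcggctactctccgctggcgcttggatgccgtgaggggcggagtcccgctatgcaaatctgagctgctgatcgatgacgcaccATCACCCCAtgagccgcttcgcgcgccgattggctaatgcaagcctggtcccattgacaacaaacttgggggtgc
Hmgcs1 (chr13:119690101-119690350, plus strand): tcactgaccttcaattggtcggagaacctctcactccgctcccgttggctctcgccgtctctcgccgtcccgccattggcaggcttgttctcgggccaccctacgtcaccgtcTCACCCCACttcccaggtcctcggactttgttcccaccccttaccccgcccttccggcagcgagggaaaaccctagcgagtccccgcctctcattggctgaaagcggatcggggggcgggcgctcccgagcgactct
Both strands of the 250 bases before the start were searched in all 32851 windows of the table, with spellings chosen while these promoters were in view. The LXR-type repeat was in 58 windows (0.177%), among them 2 of the 10 measured LXR-list genes with a window, Abca1 and Srebf1. Its stricter form, AGGTCA repeated in full, was in 5 windows (0.0152%) and in none of those 10. ATCACNNCA was in 754 windows (2.3%) and in 3 of the 13 measured cholesterol synthesis genes with a window, Cyp51, Msmo1 and Srebf2. TCACNCCAC was in 346 windows (1.05%) and in 1 of those 13, Hmgcs1. A match is a run of letters and not a shown binding site.

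Apoe (ENSMUSG00000002985, chr7:19696109-19699188, minus strand, GRCm38) was spread unevenly over these cells. In Hk2 fl/fl 60.1% (56.6 to 63.5) of noncycling microglia held no Apoe UMI, and in Hk2 cKO 51.9% (48.3 to 55.6). These shares are not at equal depth, since the cells had medians of 7855 and 10501 UMIs and a shallower cell misses Apoe more easily. Members held 95.4% of the Apoe UMIs of noncycling cells, and 23 of the members held 49.4% of the members' Apoe. The median member gave Apoe 0.267% of its UMIs in Hk2 fl/fl and 0.220% in Hk2 cKO, and the highest 8.26% and 5.28%. The lowest member had 4 Apoe UMIs of 8713 (0.0459%) and the highest cell left out had 4 of 8781 (0.0456%). Membership was thus loose at its lower end, where 28 members held 5 or fewer Apoe UMIs, while 52 held 100 or more. Cells were also ranked on a random portion of their UMIs and their levels read from the UMIs set aside, which kept 207 of the 230 members. Apoe in the UMIs set aside was at 7969.6 counts per 1000000 UMIs (CPM) in members and 67.3 CPM in other cells of Hk2 fl/fl, and at 5799 and 86.1 CPM in Hk2 cKO.

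**Figure D1:**
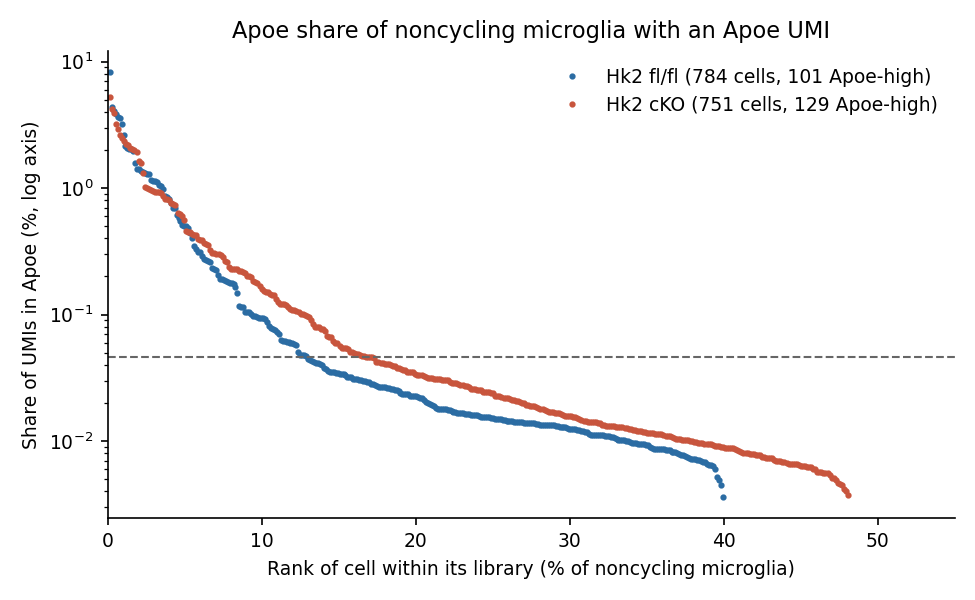
Share of UMIs in Apoe (log axis) for each noncycling microglial cell with an Apoe UMI, placed by its rank within its library in percent of that library's noncycling cells; the dashed line is the lowest member. The Hk2 fl/fl points (blue) cross the line at 12.9% of cells and the Hk2 cKO points (red) at 17.2%.

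By library, 101 of 784 noncycling microglia were members in Hk2 fl/fl, 12.9% (10.6 to 15.4), and 129 of 751 in Hk2 cKO, 17.2% (14.5 to 20.1). The share was 4.29 percentage points higher in Hk2 cKO (Newcombe interval 0.719 to 7.88), and between 2.17 and 7.31 points higher under the 14 other choices of cells that gave a value. Summed Apoe within members had the other order, 5728 CPM in Hk2 cKO members and 8003 CPM in Hk2 fl/fl members. Whether either difference is larger than the spread between mice could not be tested. Members and other cells had like depth within a library, with medians of 8383 and 7748 UMIs in Hk2 fl/fl and 10289 and 10527 in Hk2 cKO. The members' summed depth was 968336 and 1448051 UMIs.

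The libraries stood apart in a mitochondrial feature. In Hk2 cKO, 99 of 129 members had UMIs of the gene model Gm28438 and none of the mitochondrial gene mt-Nd3, and the other 30 had both or neither. In Hk2 fl/fl, 11 of 101 members had Gm28438 without mt-Nd3, 51 had mt-Nd3 without Gm28438 and 39 had both or neither. Barcodes with Gm28438 and without mt-Nd3 were therefore also compared alone. The libraries shared 2 barcode sequences, none of them a member.

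The genes of the label were checked first. Abca1 (ENSMUSG00000015243, chr4:53030787-53159895, minus strand), the pump that loads cholesterol onto apolipoproteins and whose promoter is printed above, was at 131 against 79.9 CPM in Hk2 fl/fl and 148 against 78.0 CPM in Hk2 cKO, members against other noncycling cells. Abcg1 (ENSMUSG00000024030, chr17:31057675-31117988, plus strand), which passes cholesterol to mature lipoproteins, was at 81.6 against 46.8 CPM in Hk2 fl/fl and 98.8 against 42.3 CPM in Hk2 cKO. Both pumps were higher in members of each library and kept that direction under all 23 alternatives. Lgals1 (ENSMUSG00000068220, chr15:78926725-78930465, plus strand), the galectin of the label, was at 152 against 155 CPM in Hk2 fl/fl and 133 against 119 CPM in Hk2 cKO, with overlapping counting intervals. Lgals1 was thus present in members at about the level of other cells, and the cells are described here as Apoe-high only. The rule required UMIs of at least 3 of 4 microglial genes, so their levels are no check of cell type. P2ry12, the purinergic receptor of surveying microglia, was at 682 against 798 CPM and 695 against 806 CPM, Tmem119 at 702 against 853 CPM and 800.4 against 914 CPM, Siglech at 952 against 1065 CPM and 1034 against 1141 CPM, and Fcrls at 451 against 422 CPM and 516 against 418 CPM. The first 3 were lower and Fcrls higher in members of each library, and under 1 alternative each P2ry12, Tmem119 and Fcrls had the opposite sign in Hk2 fl/fl. All 4 microglial genes were detected in 76.2% and 72.1% of members and in 66.6% and 72.0% of other cells.

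Hk2 (ENSMUSG00000000628, chr6:82725025-82774454, minus strand) was at 171 CPM in Hk2 fl/fl members and 73.9 CPM in Hk2 cKO members, and in other noncycling cells at 188 and 49.6 CPM. A 3' tag outside the floxed exons does not read the deletion itself, so these levels check the labels in part. Cx3cr1, the locus that carries the recombinase, was at 1304 CPM in Hk2 fl/fl members and 739 CPM in Hk2 cKO members.

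To see what went with Apoe, UMIs were summed over members and over other noncycling cells of each library, put on the CPM scale, and compared as a log2 ratio with 1 CPM added. A gene was measured at a mean of at least 10 CPM, and called when the higher level was at least 25% above the lower, the same way in both libraries. Of 7691 measured genes, 240 (3.12%) were called higher in members and 320 (4.16%) lower, while 246 (3.2%) passed that mark in opposite directions. Asking also that the counting intervals of members and other cells lie apart in both libraries left 58 (0.754%) higher and 51 (0.663%) lower.

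Of the 12 genes with the largest ratios beside Apoe, 10 are described here and 2 class II genes after them. Ms4a6c (ENSMUSG00000079419, chr19:11469366-11482192, plus strand), a four-span membrane protein of myeloid cells, was at 260.2 against 92.7 CPM in Hk2 fl/fl and 256 against 106 CPM in Hk2 cKO, log2 ratios of 1.48 (1.27 to 1.71) and 1.27 (1.09 to 1.46). Its relatives Ms4a4c, with log2 ratios of 1.72 and 1.01, and Ms4a6b, with 0.83 and 0.84, had the same direction. Tmem176a (ENSMUSG00000023367, chr6:48840919-48847071, plus strand), a membrane protein related to the MS4A family and found in endosomes, was at 781 against 348 CPM in Hk2 fl/fl and 541 against 278 CPM in Hk2 cKO. Cybb, the catalytic subunit of the phagocyte NADPH oxidase, was at 312 against 138 CPM and 267 against 145 CPM. Cd63 (ENSMUSG00000025351, chr10:128900989-128912822, plus strand), a tetraspanin of late endosomes and exosomes, was at 509 against 273 CPM in Hk2 fl/fl and 639 against 288 CPM in Hk2 cKO, log2 ratios of 0.89 (0.75 to 1.04) and 1.15 (1.04 to 1.26). For these genes the counting intervals of members and other cells were apart in both libraries. Cst7, the cystatin that restrains lysosomal cysteine proteases, was at 27.9 against 14.4 CPM and 68.4 against 19.6 CPM. Hcar2, the receptor for the ketone body beta-hydroxybutyrate, had log2 ratios of 0.84 and 0.82, the chemokine receptor Ccr1 0.99 and 1.03, and the noncoding AW112010 1.34 and 0.81. In each of these 10 genes the richest member held at most 20.6% of the members' UMIs.

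The class II antigen presentation genes H2-Aa and H2-Eb1 had larger ratios that rested on single cells. H2-Aa was at 204 against 46.8 CPM in Hk2 fl/fl and 15.2 against 0.572 CPM in Hk2 cKO, and 1 cell held 64.6% and 86.4% of the members' UMIs. For H2-Eb1 those shares were 67.8% and 85.7%. Among cells with no UMI of the 10 cell cycle genes H2-Aa had log2 ratios of -3.99 and -0.68, the opposite direction. At an equal depth of 5000 UMIs per cell, which left out 10 and 8 members and 90 and 44 other cells, Cd63 was seen in 80.2% of members and 55.1% of other cells in Hk2 fl/fl, and in 83.5% and 56.2% in Hk2 cKO. Without thinning the shares were 86.1% and 63.1%, and 92.2% and 73.3%.

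**Figure D2:**
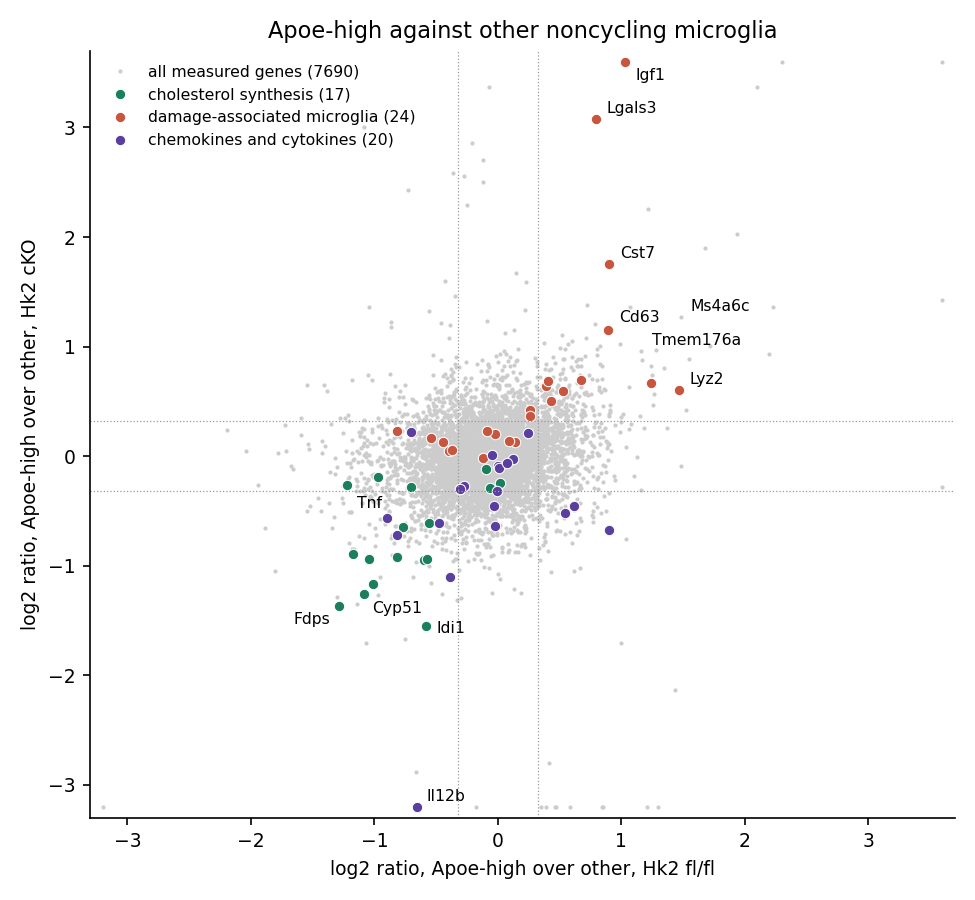
log2 ratio of summed CPM, members over other noncycling microglia, in Hk2 fl/fl (horizontal) and Hk2 cKO (vertical), 1 point for each measured gene other than Apoe; dotted lines mark a 25% difference and points beyond the axes are drawn at their edge. Of the coloured lists, 11 of 17 cholesterol synthesis genes lie past both lines at the lower left and 11 of 24 damage-associated genes past both at the upper right.

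Among the lower genes, those of cholesterol synthesis stood together. Of 24 listed, 17 were measured, 11 were called lower and none higher. The list's median log2 ratio was -0.77 and -0.89, beside -0.06 and -0.02 over all measured genes. Cyp51 (ENSMUSG00000001467, chr5:4081145-4104746, minus strand), the lanosterol demethylase whose promoter is printed above, was at 19.6 against 42.8 CPM in Hk2 fl/fl and 18.0 against 44.5 CPM in Hk2 cKO. Fdps, which makes farnesyl diphosphate, was at 16.5 against 41.6 CPM and 14.5 against 38.9 CPM, log2 ratios of -1.28 (-2.16 to -0.61) and -1.36 (-2.14 to -0.78). Msmo1, which removes the next methyl groups from the sterol, was at 16.5 against 38.6 CPM and 22.8 against 43.0 CPM. The regulator Srebf2 was itself lower, at 23.8 against 41.1 CPM and 30.4 against 48.0 CPM. Hmgcs1, the synthase whose promoter is printed above, had log2 ratios of -0.56 (-1.30 to 0.07) and -0.61 (-1.24 to -0.07). Stard4, which carries cholesterol between membranes, had log2 ratios of -1.01 and -1.16, and Insig1, which holds the sterol sensor in place, -0.60 and -0.95. Ebp, a sterol isomerase, was nearly level at 90.9 against 97.1 CPM and 86.3 against 93.6 CPM. These are low levels, and single ratios are loose. The list's median was below 0 in both libraries under all 23 alternatives, between -0.97 and -0.27 in Hk2 fl/fl and between -0.99 and -0.45 in Hk2 cKO.

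Other LXR-responsive and sterol efflux genes did not all go with Abca1 and Abcg1. Of 15 measured, these 2 were called higher and 2 lower, with medians of 0.06 and 0.23. The lower ones were Srebf1, which drives fatty acid synthesis, at 8.26 against 13.8 CPM and 10.4 against 14.2 CPM, and Scd2, a fatty acid desaturase, at 24.8 against 47.0 CPM and 27.6 against 35.6 CPM. Barcodes holding UMIs of at least 2 border macrophage markers were also left out and the top 15% taken again. The log2 ratios of Srebf1 then turned to 0.045 and 0.19, and that of Scd2 in Hk2 cKO to 0.066. Srebf1 in Hk2 fl/fl was also above 0, at 0.10, when cells were ranked on a random portion of their UMIs. Npc2, which moves cholesterol out of the lysosome, had log2 ratios of 0.25 and 0.35. Of 17 measured genes of lipid uptake and storage 4 were called higher and 2 lower. Plin2, which coats lipid droplets, was at 147 against 100.1 CPM and 117 against 71.5 CPM, and Soat1, which esterifies cholesterol for storage, at 55.8 against 42.7 CPM and 53.2 against 40.0 CPM. With cells thinned to 5000 UMIs the ratio of Soat1 in Hk2 fl/fl was -0.21. The fatty acid receptor Cd36 was lower, at 44.4 against 122 CPM and 67.0 against 95.3 CPM. Trem2, the lipid-sensing receptor of microglia, was at 1333 against 1110.1 CPM and 1544 against 1199.9 CPM, with log2 ratios of 0.26 and 0.36.

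Damage-associated genes, which rise in microglia around plaques and in degenerating tissue and of which Apoe is a known part, were higher in part. Apoe aside, 24 were measured, 11 were called higher and none lower, with medians of 0.26 and 0.39. Beside Cst7 and Cd63 they included the lectin receptor Clec7a, at 267 against 167 CPM in Hk2 fl/fl and 243 against 149.9 CPM in Hk2 cKO, and the receptor kinase Axl, at 168 against 128 CPM and 238 against 152 CPM. The lysosomal proteases Ctsb, at 2197 against 1522 CPM and 2450.2 against 1621 CPM, and Ctsd, at 10285 against 7614 CPM and 11806 against 8329 CPM, were higher too. Clec7a turned to -0.40 in Hk2 fl/fl among barcodes with Gm28438 and without mt-Nd3, where members were few. The lysozyme gene Lyz2 was at 2119 against 764 CPM and 899 against 591 CPM. Spp1 and Lpl were not called, with log2 ratios of -0.82 and 0.23 for Spp1 and -0.40 and 0.05 for Lpl. Over the 23 alternatives Spp1 lay between -1.05 and 1.85 in Hk2 fl/fl and between -0.50 and 1.04 in Hk2 cKO, and Lpl changed sign under 1 and 6 of them. Igf1 and Lgals3 had log2 ratios of 4.53 and 3.08 in Hk2 cKO, where 1 cell held 66.1% and 54.4% of the members' UMIs. Of 27 measured lysosome genes, 5 were called higher and none lower, with medians of 0.13 and 0.26. Among them the carboxypeptidase Ctsa had log2 ratios of 0.41 and 0.36 and the membrane protein Lamp1 0.35 and 0.45.

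Several inflammatory transcripts were lower. Of 20 measured chemokine and cytokine genes 5 were called lower and none higher, with medians of -0.03 and -0.38. Tnf was at 239.6 against 448 CPM in Hk2 fl/fl and 537 against 795 CPM in Hk2 cKO. The monocyte attractants Ccl2, at 961 against 1336 CPM and 1706 against 2603 CPM, and Ccl7, at 43.4 against 77.1 CPM and 120.2 against 199 CPM, were lower as well. Cxcl10 had log2 ratios of -0.38 and -1.10. Il12b, with 5 and 3 UMIs in members, had -0.66 and -3.61. Ccl3 and Ccl4, chemokines abundant in these cells, were not called, with Ccl4 at 2861 against 2859 CPM and 4117 against 4392 CPM. Outside the lists, the peptide gene Edn1, which encodes a vasoconstrictor, was at 97.1 against 164 CPM and 65.6 against 211 CPM. Pla2g4a, the phospholipase that frees arachidonic acid, had log2 ratios of -0.70 and -0.65, and Spns2, the sphingosine-1-phosphate exporter, -0.68 and -0.66. The splicing factor gene Sart3 had -1.16 and -0.85 and the noncoding Kcnq1ot1 -0.62 and -0.67.

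Actin-related genes were lower in part. In the list of galectins, annexins, S100 proteins and cytoskeleton, 3 of 30 measured genes were called higher and 5 lower. Actb was at 7234 against 9789.8 CPM and 7248 against 9550.4 CPM and the actin-capping Capg at 257 against 386 CPM and 266 against 388 CPM. The tubulin gene Tuba1a, from outside the list, was at 96.0 against 163 CPM and 100.1 against 153 CPM. Anxa5, which binds exposed phosphatidylserine, was higher, at 166 against 104 CPM and 155 against 83.3 CPM. Homeostatic microglial genes had medians of -0.16 and -0.12 over 24 genes, with 1 called higher, Crybb1, and 1 lower, Slc2a5, a fructose transporter.

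Most other lists were close to the medians over all genes. Of 18 glycolysis genes none was called higher and 1 lower, with medians of -0.10 and -0.03. Of 10 complement genes none was called higher and 1 lower, C5ar1. Of 13 iron and haem genes 1 was called higher, Blvrb, and of 22 phagocytosis receptor genes 1, Axl. The phagocytosis receptor medians were 0.19 and 0.05. A single gene was called lower among 19 antioxidant genes, Prdx2, among 25 immediate early and KLF genes, among 11 TGF-beta genes, and among 16 cell cycle genes outside the rule, Stmn1. None of 17 MHC class I genes was called, and of 18 G1 and p53 genes 1 was called each way. Of 9 class II genes, with medians of 0.30 and 0.29, 3 were called higher, H2-Aa, H2-Ab1 and H2-Eb1. Each of these 3 had the opposite sign under some alternatives: H2-Ab1 under 3 of 23 in Hk2 fl/fl and 8 in Hk2 cKO, H2-Eb1 under 2 and 6 of 22, and H2-Aa under 2 and 1 of 22. Of 26 interferon response genes 3 were called higher and 1 lower. Their medians differed in direction, -0.13 in Hk2 fl/fl and 0.24 in Hk2 cKO. In Hk2 fl/fl 4 were at least 25% higher and 7 lower, and in Hk2 cKO 11 and 1.

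**Figure D3:**
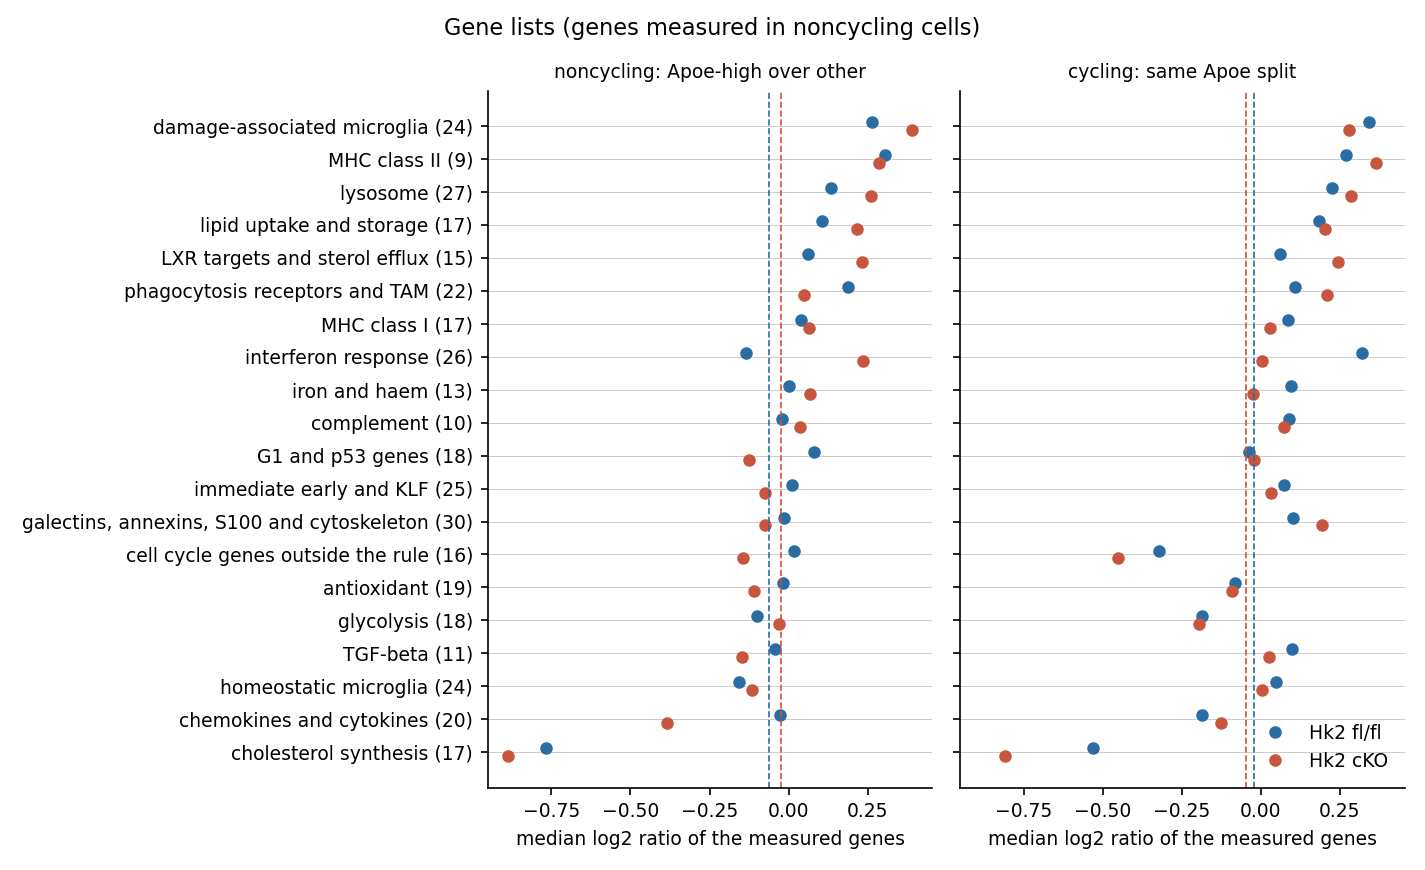
Median log2 ratio over the measured genes of each of 20 lists, Apoe-high over other cells, in noncycling microglia (left) and in cycling microglia divided at the same Apoe share (right); blue is Hk2 fl/fl, red Hk2 cKO, and dashed lines are the medians over all measured genes. Cholesterol synthesis lies lowest in both panels, at -0.77 and -0.89 on the left and -0.53 and -0.81 on the right.

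Levels were followed over 4 steps of Apoe: cells with no Apoe UMI (471 in Hk2 fl/fl and 390 in Hk2 cKO), cells with Apoe below the threshold (212 and 232), members below the members' median Apoe share (48 and 67) and members above it (53 and 62). Tmem176a ran 345, 356, 617 and 924 CPM in Hk2 fl/fl and 255, 310.3, 414 and 696 CPM in Hk2 cKO. Ms4a6c ran 83.1, 111, 196 and 317 CPM and 99.9, 114, 186 and 342 CPM. Both were higher at each step, within the members too. Cd63 ran 259, 301, 399 and 606 CPM and 246, 348, 615 and 669 CPM. The summed cholesterol synthesis list ran 666, 533, 346 and 392 CPM and 658, 614, 418 and 373 CPM, and was already lower in the members with less Apoe. P2ry12 ran 797, 799.6, 812 and 567 CPM and 804, 807, 867 and 485 CPM, lower in the last step alone. Abca1 was at 151 and 206 CPM in the members with most Apoe, against 75.6 and 75.3 CPM in cells without Apoe.

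**Figure D4:**
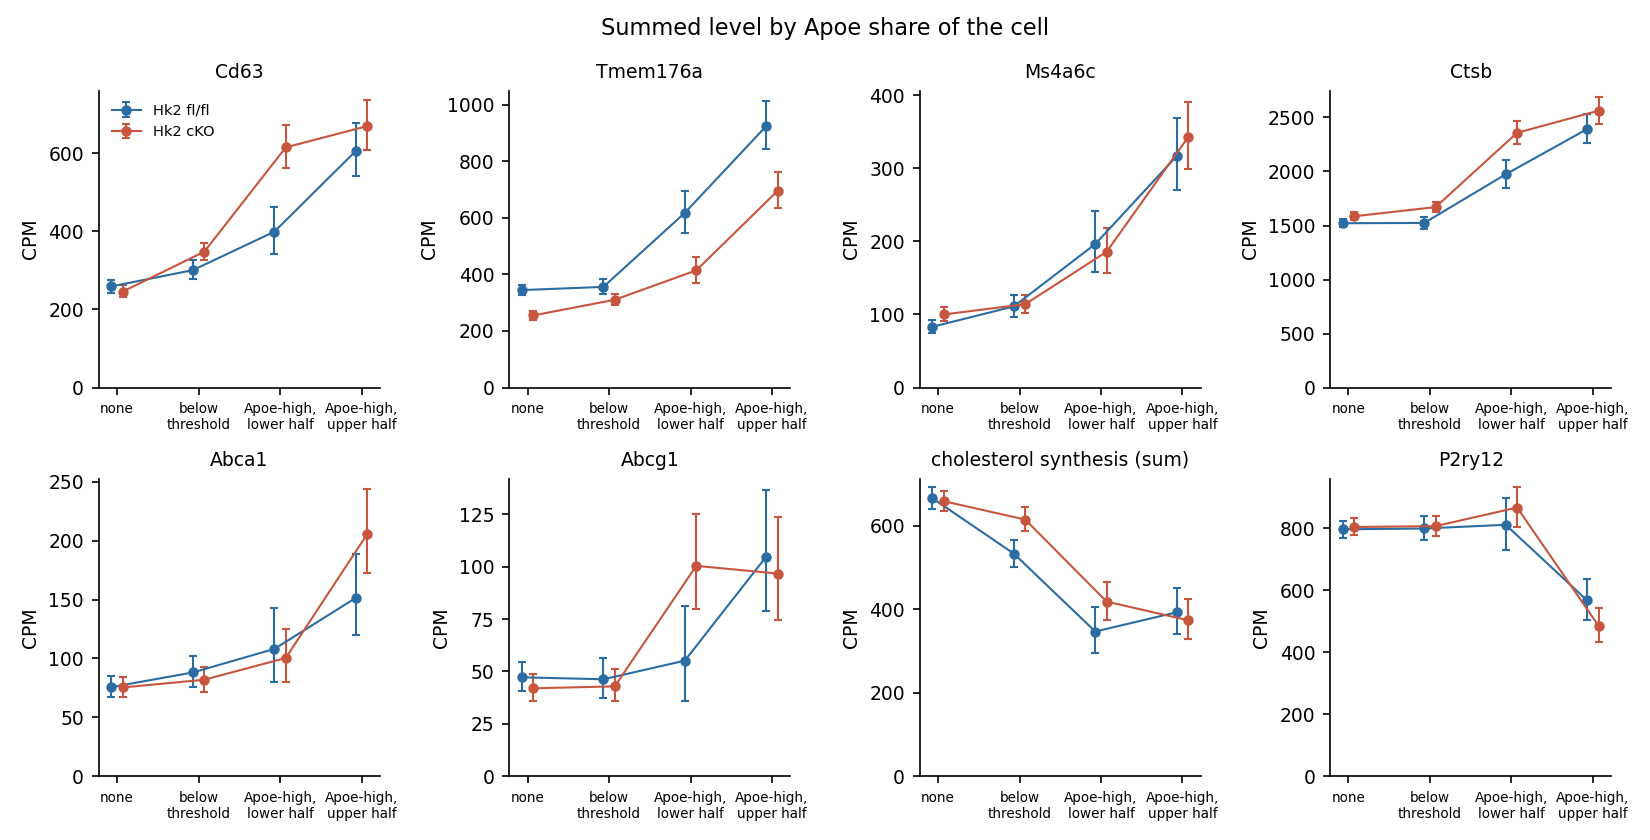
Summed CPM with exact 95% Poisson intervals in 4 steps of Apoe share, from cells with no Apoe UMI to members above the members' median Apoe share, for 7 genes and the summed cholesterol synthesis list, Hk2 fl/fl in blue and Hk2 cKO in red. Cd63, Tmem176a, Ms4a6c and Ctsb are highest in the last step, and the cholesterol synthesis sum is lower in both member steps than in cells without Apoe.

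Cell by cell the likeness to Apoe was weak. Across 1383 noncycling microglia thinned to 5000 UMIs, which share their libraries, the gene most like Apoe among 4197 was Cd63, with a Spearman correlation of 0.24. Ctsd (0.20), Ctsb (0.19), Tmem176a (0.19), Itm2b (0.18) and Ms4a6c (0.18) came next, and the lowest was Ckb, at -0.16. Of the 230 members, 78 (33.9%) were among the 15% of noncycling cells with most UMIs in the damage-associated list, and 10 (4.35%) among the 15% with most in cholesterol synthesis. For the class II list 66 members (28.7%) were among the 15% with most. That top 15% took in 24.8% of members and 9.52% of other cells in Hk2 fl/fl, and 31.8% and 15.9% in Hk2 cKO. The list includes the abundant lysosomal protease gene Ctss, so a high sum need not mean high class II molecules. Ctss was higher in members of each library under all 23 alternatives, and its part in this overlap was not tested. For the interferon list the share was 17.8%, for chemokines 13.9% and for the homeostatic list 12.6%.

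Markers of other cells moved with Apoe in part. Over 16 border macrophage markers, genes of the macrophages of meninges and vessels, the summed level was 503 CPM in members and 235 CPM in other cells of Hk2 fl/fl, and 486 and 211 CPM in Hk2 cKO. Ms4a6c is 1 of the 16 and made up 260.2 and 256 CPM of the members' sums. At least 2 of the markers were detected in 54.5% and 59.7% of members against 31.9% and 38.7% of other cells. All 6 measured markers were higher in members of each library, and 5 were called higher, Pf4, Ms4a7, Dab2, Siglec1 and Ms4a6c, but not Stab1. Of the defining markers, Mrc1 was at 5.16 against 3.36 CPM and 2.76 against 0.572 CPM and Pf4 at 27.9 against 6.55 CPM and 12.4 against 2.29 CPM, members against other cells. Lyve1 was at 0 in members, and Cd163, Cd209f and Cd209b were at 0 in members and other cells alike. Barcodes with UMIs of at least 2 of the 16 were left out and the top 15% taken again, which gave 142 cells. Of these, 98 had been members before, and the rest lay below the members' Apoe threshold. This set of cells was thus in part a different one. The cholesterol synthesis medians were then -0.44 and -0.45 and the damage-associated medians 0.33 and 0.16. Ccr1 turned to -0.27 and -0.46. In Hk2 cKO alone Msmo1 turned to 0.05, Hmgcs1 to 0.06 and Lyz2 to -0.02, all near 0. Over 16 markers of astrocytes the sums were 71.3 against 37.1 CPM and 95.3 against 45.5 CPM. Without barcodes holding UMIs of at least 2 of those, the cholesterol synthesis medians were -0.94 and -0.70. Over 12 endothelial markers the sums were 714 against 787 CPM in Hk2 fl/fl and 1072 against 770 CPM in Hk2 cKO. The 7 measured had median log2 ratios of -0.28 and 2.43. Over 0.5% of UMIs lay in these markers in 0 members and 3 other cells of Hk2 fl/fl, and in 4 and 1 of Hk2 cKO. The part of RNA from other cells in the members' Apoe was not tested.

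A small group of members carried Ms4a7, a gene of border macrophages that microglia largely lack. It was detected in 11 members of Hk2 fl/fl and 13 of Hk2 cKO, and in 4 and 1 of the other cells. Apoe was at 18483 CPM in them and 6238 CPM in members without Ms4a7 in Hk2 fl/fl, and at 17657 and 4415 CPM in Hk2 cKO. Sall1, the transcription factor of resident microglia, was at 35.8 CPM (11.6 to 83.6) against 89.3 CPM (70.1 to 112) in Hk2 fl/fl, and at 41.8 CPM (15.3 to 91.0) against 91.2 CPM (75.6 to 109) in Hk2 cKO, with overlapping intervals in both. Leaving out all barcodes with an Ms4a7 UMI gave cholesterol synthesis medians of -0.95 and -0.48.

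Neutrophil RNA was uneven. The neutrophil gene Retnlg had the largest ratio among genes lower in members, with 1 UMI in members of each library against 490 and 640 UMIs in other cells, held by 14 and 12 cells. A single Hk2 fl/fl member held 94.2% of the members' UMIs of 12 neutrophil markers, and a single member held 99.4% of those of 10 choroid plexus and ependymal markers. Barcodes with over 0.5% of their UMIs in the markers of 1 of 10 other cell types were 2 of 101 and 5 of 129 members, and 15 of 683 and 8 of 622 other cells. Without them 13.2% and 16.9% of noncycling cells were members.

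Cycling microglia were not used by the rule and gave a further set of cells, from the same libraries, to divide at the same Apoe share. Of these, 153 of 1444 in Hk2 fl/fl, 10.6% (9.05 to 12.3), and 147 of 1027 in Hk2 cKO, 14.3% (12.2 to 16.6), were at or above the lowest member's share. Of 7870 genes measured there, 289 (3.67%) were higher in both libraries and 326 (4.14%) lower. Among the 12 leading higher genes of the noncycling cells 11 passed the 25% mark the same way in both libraries, and among the 12 leading lower ones 8. The 11 include H2-Aa and H2-Eb1, whose ratios in noncycling cells rested on single cells. Tmem176a was at 418 against 220.3 CPM and 383 against 160.1 CPM, Apoe-high against other cycling cells of Hk2 fl/fl and then of Hk2 cKO. Cd63 was at 272 against 158 CPM and 364 against 163 CPM and Abca1 at 75.5 against 34.1 CPM and 74.9 against 23.6 CPM. Cyp51 was lower, at 38.1 against 78.3 CPM and 38.8 against 91.7 CPM. Of 22 measured cholesterol synthesis genes 16 were called lower and none higher, with medians of -0.53 and -0.81. Cell cycle genes outside the rule were lower in the same cells, 16 of 38 with medians of -0.32 and -0.45, and their part in the cholesterol synthesis difference there was not tested. In noncycling cells the cell cycle medians were 0.02 and -0.14. Retnlg, lower in noncycling members, was higher in Apoe-high cycling cells, at 121 against 24.9 CPM and 173 against 83.8 CPM. Other neutrophil genes were higher there too, with S100a8 at 1577 against 877 CPM and 3121 against 1474 CPM. The tight junction gene Cldn5 was at 46.1 against 27.5 CPM and 79.6 against 31.6 CPM. Ttr, of choroid plexus, was at 1113 against 10.0 CPM in Hk2 fl/fl and 3.40 against 6.34 CPM in Hk2 cKO. The part of RNA from other cells in the cycling differences was not tested.

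Between genotypes, members of Hk2 cKO were higher in interferon response genes. Loss of Hk2, the Cx3cr1CreER allele named for this group alone, any difference in tamoxifen and the library cannot be told apart in this design. Over all genes, 1646 (21.4%) were at least 25% higher in Hk2 cKO members and 1267 (16.5%) lower, and with counting intervals apart 231 (3%) and 174 (2.26%). In the more numerous other cells 475 (6.18%) were higher and 485 (6.31%) lower. Of 26 interferon response genes 24 were called higher in Hk2 cKO members and none lower. Their median log2 ratio was 1.60 in members, beside 0.03 over all measured genes, and 1.17 in other noncycling cells. Ifit3, which restrains viral RNA translation, was at 104 CPM in Hk2 cKO members and 12.4 CPM in Hk2 fl/fl members. The ubiquitin-like Isg15 was at 124 CPM in Hk2 cKO members and 19.6 CPM in Hk2 fl/fl members, and the regulator Irf7 at 125 CPM in Hk2 cKO members and 23.8 CPM in Hk2 fl/fl members. Other cells showed the same direction, with Isg15 at 105 CPM in Hk2 cKO and 23.7 CPM in Hk2 fl/fl, and whether members differed more than other cells was not tested. MHC class I genes had medians of 0.42 in members and 0.36 in other cells. Among barcodes with Gm28438 and without mt-Nd3 the interferon median in members was 1.41, with only 11 Hk2 fl/fl members against 99 of Hk2 cKO.

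**Figure D5:**
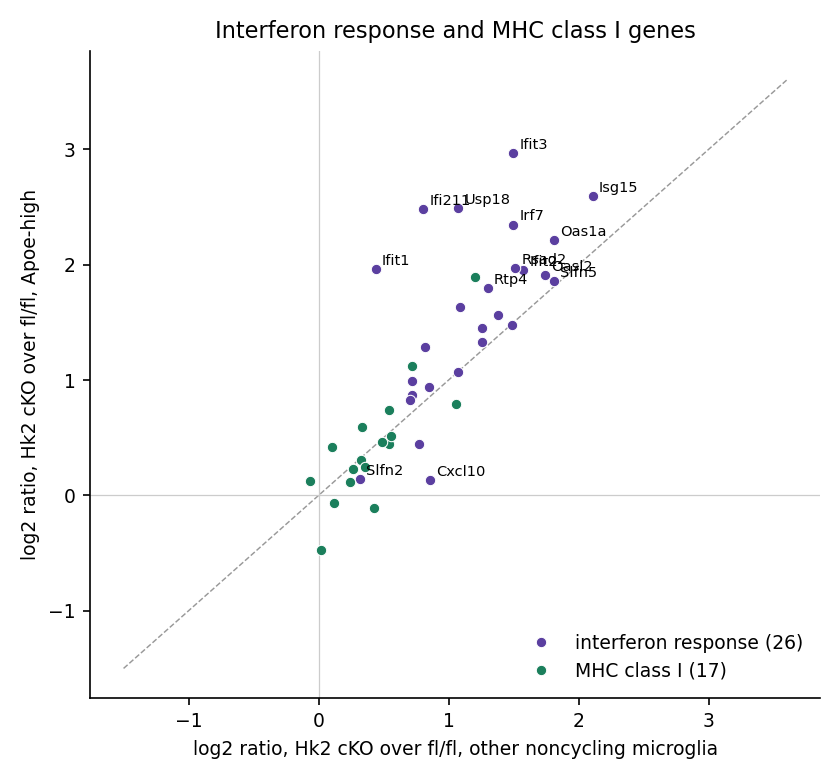
log2 ratio of Hk2 cKO over Hk2 fl/fl for 26 interferon response genes and 17 MHC class I genes, in other noncycling microglia (horizontal) and in members (vertical); the dashed line marks equal ratios. All 26 interferon response genes lie above 0 in members.

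Efflux and cholesterol synthesis genes were closer to level between genotypes. Abca1 had a log2 ratio of Hk2 cKO over Hk2 fl/fl members of 0.17 and Abcg1 of 0.27, and the cholesterol synthesis median was -0.11. Under the 23 alternatives the ratio of Abca1 changed sign in 3 and that of Abcg1 in 4. Cst7 was at 68.4 CPM in Hk2 cKO members and 27.9 CPM in Hk2 fl/fl members, and without barcodes holding UMIs of at least 2 border macrophage markers its log2 ratio turned to -0.22. Lyz2 was at 899 CPM in Hk2 cKO members and 2119 CPM in Hk2 fl/fl members. The size of this difference was loose, with log2 ratios between -1.41 and -0.15 over the 23 alternatives. In members without Ms4a7, Lyz2 was at 814 CPM in Hk2 cKO and 1764 CPM in Hk2 fl/fl. Apoe had a log2 ratio of -0.48, and among barcodes with Gm28438 and without mt-Nd3 of 0.75, the opposite direction. The latter value rests on 11 Hk2 fl/fl members. Tnf and Ccl7, lower in members of each library, had ratios of 1.16 and 1.45 in members and 0.83 and 1.36 in other cells. The tight junction gene Cldn5 was at 93.9 CPM in Hk2 cKO members and 17.6 CPM in Hk2 fl/fl members, and without barcodes rich in markers of another cell type its log2 ratio was -0.23. The genes lowest in Hk2 cKO members were led by Ttr, the transthyretin of choroid plexus, of which 1 Hk2 fl/fl cell held 99.4% of the members' UMIs, and by neutrophil genes that are given among the results for a closer look.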

How the data were processed

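Raw UMI counts per gene and barcode were deposited by the authors, made with bcl2fastq and Cell Ranger 3.1.0 on GRCm38 per the submitters' processing notes; the sources used here do not describe how cells were called. The libraries held 3089 barcodes and 37476201 UMIs (Hk2 fl/fl) and 2607 barcodes and 32896996 UMIs (Hk2 cKO). Counts were summed over the cells of each group and scaled to counts per 1000000 UMIs, with Python 3.11.15, numpy 2.4.6, scipy 1.17.1 and pandas 2.3.3. TMM factors came from edgeR 4.0.16 in R 4.3.3 as an alternative. Intervals were Poisson for levels, Clopper-Pearson for shares and conditional binomial for ratios, the last without the added CPM, and cover counting error only. No test was run, since each genotype was 1 library. Scrublet in scanpy 1.11.5 marked 2 of 2826 and 1 of 2301 barcodes, which is too few to have worked, so doublets remain. Free RNA was not removed.

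Members and gene lists were chosen with earlier results of these data known. Genes named were Apoe, the genes of the rule, Hk2, Cx3cr1, the 12 highest and 12 lowest genes by the log2 ratio nearer 0 of the libraries (mean of at least 30 CPM, intervals apart), up to 4 extreme and the 2 most abundant genes of each list, the 10 highest and 10 lowest between genotypes, and the genes most correlated with Apoe. Mitochondrial, ribosomal protein, haemoglobin and sex-linked genes and unnamed gene models were left out of these rankings. Clec7a, Hmgcs1, Lyz2, Soat1, Cd36, Spp1, Lpl, Ms4a7, Sall1 and the border macrophage genes were named after their values were seen. Scripts were tested on simulated data. The alternatives changed the size of the member group, the cell filters, the ranking, the scaling, the filter on level and the barcodes left out. Leaving out barcodes rich in markers of another cell type, those with Ms4a7, or each gene's richest cell was chosen after seeing the data.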

Additional observations from a re-analysis of the deposited data

Results flagged for a closer look

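In 7 genes of neutrophils members stood above other noncycling cells in Hk2 fl/fl and below them in Hk2 cKO, a difference between the libraries that was not tested. Ltf, lactoferrin, had log2 ratios of 1.21 in Hk2 fl/fl and -5.97 in Hk2 cKO. For S100a8, a calgranulin, they were 0.46 and -6.60. For S100a9, its partner, they were 0.35 and -6.48. Ngp, a granule protein, had log2 ratios of 0.85 in Hk2 fl/fl and -6.06 in Hk2 cKO. For Lcn2, lipocalin 2, they were 0.39 and -6.08. For Camp, a cathelicidin, they were 0.85 and -5.91. For Wfdc21, a secreted protease inhibitor relative, they were 0.58 and -5.52. A single cell held between 98.0% and 100% of the Hk2 fl/fl members' UMIs of each of these genes, and among other cells the 12 neutrophil markers summed to 3351 CPM in Hk2 fl/fl and 3873 CPM in Hk2 cKO.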

How the results depend on the processing

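No setting turned the difference in member share, which lay between 2.17 and 7.31 percentage points, or the medians of the cholesterol synthesis, damage-associated and lysosome lists between members and other cells. Counts of called genes moved by over 1.5 times with the filter on level: at a mean of at least 50 CPM 58 genes were higher and 72 lower in members, and 389 higher and 297 lower in Hk2 cKO; at 1 CPM these were 784, 870, 3605 and 2950. Barcodes with Gm28438 and without mt-Nd3 gave 407, 484, 2783 and 2330, with 11 Hk2 fl/fl members. Fewer genes were higher, 121, and more lower, 610, when each gene's richest cell was left out of each sum. This takes a larger part from the sums of 101 and 129 members than from those of 683 and 622 other cells. The shift is thus in part built in and does not count genes that rest on 1 cell. The lower genes numbered 504 with the top 10% as members, 589 with no UMI of the cell cycle genes and 524 from thinned cells, and the higher genes 393 when levels came from UMIs set aside. Among values of single genes that had been called 50 turned direction, many of them of class II genes carried by 1 cell; values that had not been called, such as those of Ccl4, Lgals1, Spp1 and Lpl, changed sign under some settings too. The 50 follow as log2 ratios, of members over other cells unless between genotypes, and the cause was not tested. Ranking after thinning to 5000 UMIs gave H2-Ab1 in Hk2 cKO -0.21. Ranking on a random portion of the UMIs gave Srebf1 in Hk2 fl/fl 0.10. A minimum of 2000 genes gave H2-Eb1 in Hk2 cKO -0.17 and H2-Ab1 in Hk2 cKO -0.11. Asking for all 4 microglial genes gave H2-Eb1 in Hk2 cKO -0.42 and H2-Ab1 in Hk2 cKO -0.082. Asking for no UMI of the 10 cell cycle genes gave H2-Aa in Hk2 fl/fl -3.99, H2-Aa in Hk2 cKO -0.68, H2-Eb1 in Hk2 fl/fl -6.10, H2-Eb1 in Hk2 cKO -0.17, H2-Eb1 between genotypes 1.32, Lgals3 in Hk2 fl/fl -0.78 and Cxcl10 in Hk2 fl/fl 0.34. It also gave Il12b in Hk2 fl/fl 1.07, H2-Ab1 in Hk2 fl/fl -0.78, H2-Ab1 in Hk2 cKO -0.23, S100a8 between genotypes 0.41 and Chil3 between genotypes 0.23. Leaving out barcodes with at least 2 border macrophage markers gave Ccr1 in Hk2 fl/fl -0.27, Ccr1 in Hk2 cKO -0.46, Cst7 between genotypes -0.22, AW112010 in Hk2 fl/fl -0.074, Msmo1 in Hk2 cKO 0.047, Srebf1 in Hk2 fl/fl 0.045 and Srebf1 in Hk2 cKO 0.19. It also gave Scd2 in Hk2 cKO 0.066, Lgals3 in Hk2 cKO -0.012, Hmgcs1 in Hk2 cKO 0.055, Lyz2 in Hk2 cKO -0.017 and H2-Ab1 in Hk2 fl/fl -0.0025. There the damage-associated median between genotypes was -0.067, and 98 of the 142 cells had been members in the main ranking. Leaving out those with at least 2 astrocyte markers gave H2-Aa in Hk2 fl/fl -3.24, H2-Eb1 in Hk2 fl/fl -2.55 and H2-Ab1 in Hk2 fl/fl -1.05. Barcodes with Gm28438 and without mt-Nd3 gave Apoe between genotypes 0.75, Clec7a in Hk2 fl/fl -0.40, Capg in Hk2 fl/fl 0.072, S100a8 between genotypes 0.37, S100a9 between genotypes 0.71, Lcn2 between genotypes 0.88 and Camp between genotypes 2.59. It also gave Chil3 between genotypes 1.42. Sums of thinned cells gave H2-Ab1 in Hk2 cKO -0.21 and Soat1 in Hk2 fl/fl -0.21. Leaving out barcodes rich in markers of another cell type gave H2-Eb1 in Hk2 cKO -0.26, H2-Ab1 in Hk2 cKO -0.048 and Cldn5 between genotypes -0.23. Leaving out barcodes with an Ms4a7 UMI gave H2-Eb1 in Hk2 cKO -0.27 and H2-Ab1 in Hk2 cKO -0.023. Leaving out each gene's richest cell gave H2-Eb1 in Hk2 cKO -0.19 and H2-Ab1 in Hk2 cKO -0.0039. The top 15% within each library fixes the share of members and gave no value for it. Depth limits single cholesterol synthesis genes, most of which held fewer than 50 UMIs in members. No paired analysis was possible because each genotype was 1 library, and for the same reason no replicate could be left out.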
